A study of Drosophila melanogaster with 2 samples.

Results

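Chromatin immunoprecipitation with sequencing (ChIP-seq) against green fluorescent protein (GFP) had located a tagged Camta protein on fly chromatin, and the peaks lying just upstream of single protein-coding promoters are described here. Among the 4033 peaks that passed the authors' test of agreement between replicates (the irreproducible discovery rate, IDR), 1039 (25.8%) met the rule. The summit had to lie within 500 bp of a protein-coding transcript start and upstream of the nearest one. It could not lie within 500 bp of the starts of both genes of a head-to-head pair, that is, of neighbouring genes on opposite strands transcribed away from each other from starts at most 1000 bp apart. These 1039 peaks had 952 different nearest genes. The material was whole Drosophila melanogaster embryos of mixed sex from the strain Camta-MiMIC-GFP, 0 to 24 h old, in which an extra eGFP exon within an intron of Camta makes the gene encode the fusion. There was 1 group with 2 biological replicates, which the labels number 2 and 3, and both carried the same allele. The collection pools all embryonic ages and cell types, so neither the stage nor the tissue of binding can be read from a peak. No read counts were among the files, so the depth is unknown and the intervals given below cover only the number of peaks, promoters or genes.

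Camta belongs to the calmodulin-binding transcription activators, whose DNA-binding domain recognises a short CGCG-containing site in vitro, the CGCG box. Fly promoters fall broadly into kinds. Those of widely expressed genes, with scattered or moderately focused starts, often carry the DNA replication-related element (DRE), bound by DREF, or Motif 1, bound by M1BP. Promoters of genes switched on in particular tissues or stages more often carry a TATA box or an initiator. Polymerase recruitment sites and the nucleosome-depleted stretch of an active promoter lie immediately upstream of the start, where many factors are recovered by ChIP.

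The sequences under a few of these peaks show what the summit windows contain. Each runs 5′ to 3′ on the strand of the gene, covers the bases within 50 bp of the summit, and ends at the latest at the base before the transcript start. They were read from the RefSeq Release 6 assembly, which has dm6 coordinates, and none overlaps an annotated exon. The first set shows strong peaks with a DRE, TATCGATA, in capitals. They belong to eEF1gamma, a translation elongation factor gene (chr3R:29220103-29220171, + strand), RpL27 (chr3R:25685052-25685104, − strand), kibra, a gene of the Hippo growth pathway (chr3R:14724319-14724419, − strand), and RpL37-1 (chrX:15139396-15139496, − strand).
eEF1gamma: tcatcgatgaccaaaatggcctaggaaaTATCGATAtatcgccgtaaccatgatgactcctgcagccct
RpL27: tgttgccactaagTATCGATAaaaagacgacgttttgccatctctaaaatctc
kibra: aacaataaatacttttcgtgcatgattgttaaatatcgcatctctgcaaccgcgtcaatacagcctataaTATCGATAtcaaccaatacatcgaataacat
RpL37-1: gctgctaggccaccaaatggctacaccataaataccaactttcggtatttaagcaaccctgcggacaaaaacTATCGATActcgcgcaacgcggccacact
Next are Motif 1, GGTCACAC on either strand, in capitals at Vha68-2, a subunit gene of the vacuolar proton pump (chr2L:12974153-12974253, + strand), and at Rnp4F, an RNA-binding protein gene (chrX:5322697-5322791, − strand). The Rnp4F window also holds a DRE.
Vha68-2: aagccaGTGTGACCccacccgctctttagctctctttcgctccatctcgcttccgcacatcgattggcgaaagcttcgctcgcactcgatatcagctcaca
Rnp4F: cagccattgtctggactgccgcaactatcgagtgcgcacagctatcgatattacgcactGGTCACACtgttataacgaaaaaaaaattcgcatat
The CGCG box, CGCG preceded by any base but T and followed by any base but A, is in capitals at RpL22 (chrX:765131-765230, − strand) and at Ip259 (chr2L:10408248-10408348, + strand), where it occurs 2 times.
RpL22: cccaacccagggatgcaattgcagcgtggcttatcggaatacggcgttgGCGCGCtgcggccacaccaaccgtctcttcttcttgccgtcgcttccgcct
Ip259: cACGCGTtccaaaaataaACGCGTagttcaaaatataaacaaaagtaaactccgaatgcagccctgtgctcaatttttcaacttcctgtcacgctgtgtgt
The strongest peaks with printable windows held none of these motifs. They are shown for CG14100 (chr3L:19590571-19590671, − strand), Ugalt, which encodes a UDP-galactose transporter (chrX:2703853-2703944, − strand), and ph-p, a Polycomb group gene (chrX:2137283-2137383, − strand).
CG14100: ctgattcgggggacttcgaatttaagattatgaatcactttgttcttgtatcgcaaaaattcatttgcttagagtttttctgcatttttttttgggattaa
Ugalt: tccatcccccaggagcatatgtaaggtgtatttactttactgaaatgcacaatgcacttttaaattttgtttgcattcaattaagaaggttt
ph-p: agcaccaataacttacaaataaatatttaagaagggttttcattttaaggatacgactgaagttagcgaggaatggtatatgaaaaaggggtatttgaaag

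Summits crowded the stretch just before the start and thinned out further away. The median summit lay 156 bp upstream, with quartiles at 72 and 263 bp. Within 50 bp of the start lay 171 summits, 185 lay from 51 to 100 bp, 291 from 101 to 200 bp, 197 from 201 to 300 bp and 195 from 301 to 500 bp. The region of the peak reached across the start itself at 593 of the 1039 (57.1%). The rule placed the limit at 500 bp: CG3348 at 498 bp and jar, CG30403 and stv, tied at 497 bp, were the members closest to it, with signal values of 125.6, 289.6, 115.8 and 105.4. Just outside were peaks at CG17896 and CG10479, at 501 bp each and with signal values of 575 and 473.5, and at CG9706 at 502 bp with 139.

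**Figure D1:**
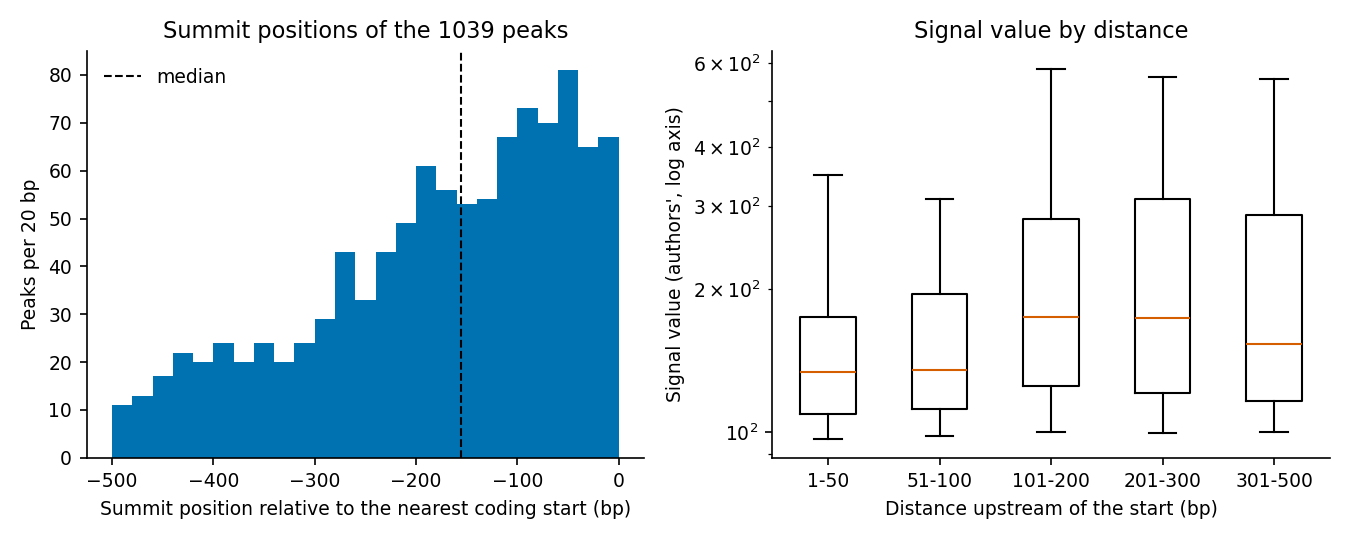
Left: number of peaks per 20 bp by the position of the summit relative to the nearest protein-coding start, with the median of 156 bp upstream as a dashed line. Right: the authors' signal value on a log axis by distance group, with the median as an orange line, quartiles as the box and the 5th to 95th percentile as whiskers; the median was lowest within 50 bp of the start and highest from 101 to 200 bp.

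A nearest start does not settle which gene a peak belongs to. The summit was within 500 bp of the starts of 2 or more coding genes at 36 peaks, within 500 bp of a non-coding start at 71 (6.83%), and inside another coding gene at 114 (11%). Named peaks inside another coding gene included those of aay, eIF6, elav, moody, CG1827, CG10600, CG30403 and esc. Those near a non-coding start included mRpL41, brwl, eIF6, elav, RpL22, RpL37A, Camta, ND-B17 and E(spl)m3-HLH. Members shared genes as well: 72 genes were nearest to 2 or more peaks, at separate starts for 38 of them. RapGAP1 and Rtnl1 had 5 each and larp 4, RapGAP1 being named after its count was seen. The 1039 summits came from 1036 distinct regions.

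The strongest upstream peaks ranked high in both replicates, and their summit windows were low in G and C. The authors' signal value, with scaling not given in the sources used here, ranged from 95.3 to 2186 with a median of 150.2. The highest belonged to px, a gene of wing vein patterning, where the summit lay 204 bp upstream and the peak ranked 1 in replicate 2 and 2 in replicate 3. CG14100 followed with 2091 (rank 3 in both replicates), Ugalt with 1841 (rank 5 in both), ph-p with 1589 (ranks 6 and 8) and mRpL41, a mitochondrial ribosomal protein gene, with 1550.2 (ranks 11 and 6). These ranks are over all regions listed for a replicate, not over the upstream peaks alone. Within the leading 20 genes, the strongest regions of each replicate covered all 20 peaks. The signal value that chose these 20 was derived from both replicates, so their high ranks and coverage are not independent support.

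Regulators stood beside enzymes in that leading group. The casein kinase gene gish had a signal value of 1244 (rank 12 in replicate 2 and 18 in replicate 3). The RNA-binding protein gene larp had 1096 (ranks 18 and 28), the HMG-box factor gene Sox14, which acts downstream of ecdysone, had 873 (ranks 33 and 59), and Atf3, which encodes a bZIP transcription factor, had 812 (ranks 56 and 49). The others were CG31145 at 1283, CG1888 at 1255, CG18549 at 1144, CG13921 at 1141, CG46429 at 846, brwl at 796, the reticulon gene Rtnl1 at 781, the prolyl isomerase gene Fkbp14 at 751, the phosphoserine phosphatase gene aay at 739.5, the mannosyltransferase gene Alg3 at 737 and CG1635 at 726.5. Summits of these 20 lay 42 to 478 bp upstream, with a median of 170 bp. Alg3 was the 1 gene of the 20 with a DRE within 50 bp of the summit, against 3.56% of all upstream peaks. Motif 1 and the CGCG box occurred at 0 of these 20 summit windows of 101 bp, against 2.21% and 7.31% of all. The TATA box, TATAAA on either strand, occurred at 7 of the 20 and 16.1% of all, and the initiator word TCAGT at 10 of the 20 and 17.5% of all. Summits of the 20 lay a median of 170 bp upstream, so most of these windows end before the start. These hits are matches to words on either strand, and their role as core promoter elements was not tested. The windows held 30.5 ± 6.55% G and C (SD over the 20 windows), against 37.4 ± 9.49% (SD) over all 1039.

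Both replicates supported most of the upstream peaks. At least 50% of the region was covered by one of the 4033 strongest regions of each replicate for 766 of 1039 (73.7%, 95% Wilson interval 71 to 76.3). Coverage came from replicate 2 alone at 88 peaks, from replicate 3 alone at 176 and from neither at 9. All other IDR peaks were covered in both at 74.7%, and the odds ratio was 0.95 (two-sided p = 0.536 by Fisher's exact test; 95% interval 0.808 to 1.12), which did not pass. Across the 1038 upstream peaks with a region in both lists, Spearman's rho of the ranks was 0.731. This is a description over peaks, which are not replicates, and a further file was common to the lists of both replicates. The IDR list was itself chosen for agreement between these replicates.

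Some peaks were given far more discordant ranks. MFS18 ranked 3307 in replicate 2 and 123 in replicate 3, E(spl)m3-HLH, a Notch-responsive repressor gene, 3744 and 197, and JIL-1, which encodes a histone H3 kinase, 15507 and 1521. In the other direction P5CDh1 ranked 1084 and 25452, bin3 449 and 2570, and koi, a gene of the nuclear envelope, 1951 and 10786. At 4 of these genes a stronger upstream peak lay beside or overlapped the one named. That of MFS18, in the same region, ranked 147 and 123, that of P5CDh1 1084 and 230 and that of bin3 449 and 229, so each pair shared the rank of 1 region in 1 replicate. The stronger peak of E(spl)m3-HLH had a rank in replicate 2 and none in replicate 3. Signal values of these 6 peaks ran from 103.2 at koi to 182.1 at MFS18. The ratio of ranks chose them, so they describe the extremes and test nothing.

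**Figure D2:**
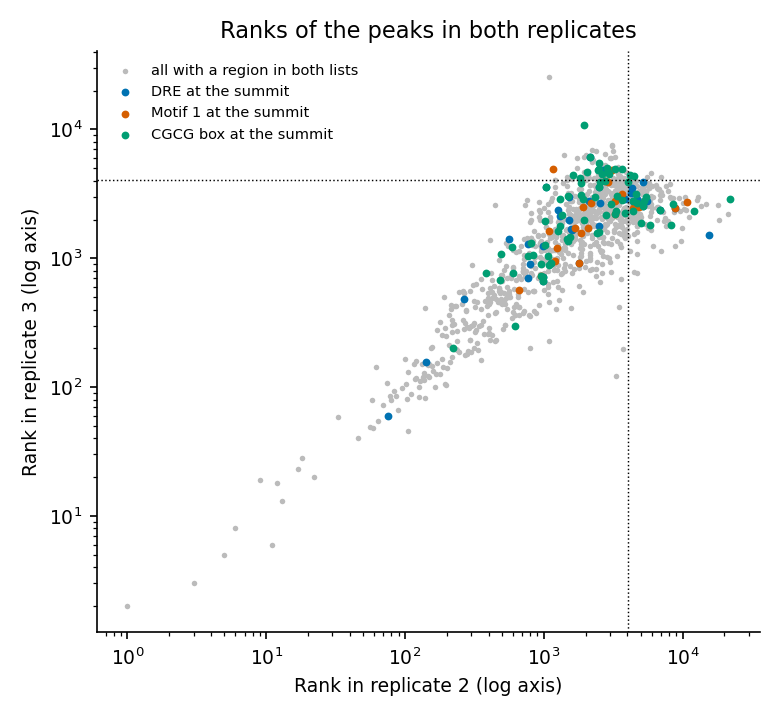
Rank of each upstream peak in the relaxed list of replicate 2 (x axis) and of replicate 3 (y axis), both log axes with 1 as the strongest region. Dotted lines mark rank 4033, and colours mark peaks with a DRE, Motif 1 or CGCG box within 50 bp of the summit; points gather along the diagonal (Spearman's rho of 0.731) and the strongest coloured point is the DRE peak at Alg3 (ranks 76 and 60).

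Upstream peaks were stronger than peaks downstream of the start, and did not differ detectably in strength from those between divergent promoters. Of the 1286 single-promoter peaks, 1039 (80.8%) lay upstream, 244 downstream and 3 on the start. The median signal value was 150.2 upstream and 125.5 downstream, a difference of 0.0796 in log10 (95% interval 0.0505 to 0.109, linear model with robust errors, n = 1039 and 244, p = 8.65e-08). At the 759 peaks between divergent promoters the median was 154.6, a difference of 0.00749 in log10 (−0.0144 to 0.0293, n = 1039 and 759, p = 0.502). The second comparison depended on the window: with summits taken within 250 bp of a start, upstream peaks were weaker than divergent ones, with a difference of −0.0428 in log10 (n = 976 and 478, p = 0.00124), and among the strongest 2016 IDR peaks they were stronger by 0.0282 (n = 538 and 408, p = 0.0393). Coverage in both replicates was 64.8% for downstream peaks, below that of upstream peaks (odds ratio 1.53, two-sided p = 0.00558 by Fisher's exact test, 95% interval 1.14 to 2.05). P-values here and below are over peaks or promoters, so they do not measure the spread between replicates.

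Signal values were higher, and GC content lower, more than 100 bp from the start. From the start outward, the median signal value of the 5 distance groups was 134.1, 134.8, 175, 173.8 and 153.3, and G and C made up 45.5%, 41%, 34.4%, 34.1% and 34.8% of the summit windows. Over the 1039 peaks, Spearman's rho between distance and signal value was 0.155 and between GC content and signal value −0.235, both given as descriptions across peaks that share libraries and base composition. Mean GC content of the summit windows was 37.4%, against 42.5% downstream of starts (difference −5.02, 95% interval −6.39 to −3.65, linear model, n = 1039 and 244, p = 6.88e-13) and 35.3% between divergent promoters (difference 2.13, 1.24 to 3.02, p = 2.68e-06).

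Motifs also sorted by distance. A DRE lay within 50 bp of the summit at 37 upstream peaks, at 13.5% of those within 50 bp of the start, 5.95% of those at 51 to 100 bp, 1.03% at 101 to 200 bp and 0% beyond. Motif 1, at 23 peaks, fell from 8.19% to 2.16%, 1.03%, 1.02% and 0% over the same groups. The TATA box ran from 5.26% nearest the start to 13.5%, 23.4%, 18.3% and 14.9%. The motif windows follow the summit here, so distance and motif cannot be read as separate results.

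In the main setting, peaks with Motif 1 or a CGCG box at the summit had lower signal values than peaks without. The DRE comparison depended on the setting. The 37 peaks with a DRE had a median signal value of 136.3 (quartiles 111 and 214) against 150.3 for the 1002 without, a difference of −0.0518 in log10 that did not pass (95% interval −0.123 to 0.0191, linear model with robust errors, n = 37 and 1002, p = 0.152). With the motif allowed within 100 bp of the summit the same comparison passed, at −0.0703 (n = 65 and 974, p = 0.00574), and it also passed in the strongest regions of replicate 3 alone, at −0.0661 (n = 45 and 984, p = 0.0298). With the distance of the summit from the start as a covariate, an alternative added after seeing the data, the DRE difference was −0.0204 (n = 37 and 1002, p = 0.578). The 23 peaks with Motif 1 had a median of 126.6 (difference −0.103, −0.161 to −0.045, n = 23 and 1016, p = 0.000488) and the 76 with a CGCG box 126.8 (−0.0988, −0.138 to −0.0593, p = 9.57e-07). For the 167 with a TATA box it was 163.5 (0.0404, −0.0017 to 0.0826, n = 167 and 872, p = 0.06). These 4 comparisons were not adjusted for their number. The other settings and the distance covariate were run for the DRE alone. Whether the Motif 1 and CGCG box differences depend on them was not tested.

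The DRE peaks themselves ranged widely. Alg3 (ranks 76 in replicate 2 and 60 in replicate 3) was the strongest and eEF1gamma (142 and 158) the next. CG1827 followed at 367 (ranks 265 and 483), p53, the tumour suppressor gene, at 271 (770 and 698) and RpL27 at 256.5 (995 and 715). With Motif 1 the strongest were RpL37A at 297 (667 and 566), eEF1alpha1, the main translation elongation factor gene, at 240.5 (949 and 725), Vha68-2 at 221 (1208 and 957), Rnp4F at 198 (1789 and 922) and RpL27A at 185 (1094 and 1637). With a CGCG box they were moody, a G protein-coupled receptor gene of the blood-brain barrier, at 467 (223 and 203), RpL22 at 365 (616 and 299), RpL11 at 302 (382 and 772), CG10600 at 292 (487 and 678) and CG3358 at 273 (605 and 768). Cytosolic ribosomal protein genes recur in all 3 sets. They had 29 of the 1039 upstream peaks, all within 88 bp of the start. The DRE and Motif 1 were commonest at summits within 50 bp of the start, so gene list and position cannot be told apart here.

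Against the other peak classes, the summit windows of upstream peaks held CGCG and GCGC less often than those of downstream peaks and GAGA sites more often than those of divergent peaks. All 23 motifs of the panel were searched on both strands, with p-values adjusted over the panel by the Benjamini-Hochberg method. A call needed an adjusted p below 0.05 and a 1.5-fold difference, up or down. The CGCG box stood at 7.31% of upstream and 17.6% of downstream summits, a fold of 0.415 (adjusted p = 4.16e-05, Fisher's exact test). CGCG alone, which the CGCG box contains, had a fold of 0.521, GCGC, a control word of the same composition, 0.611, and the initiator word TCAGT 0.658 (exact tests, adjusted p = 1.88e-05, 6.53e-05 and 0.00899). The CCGG control was not called, at 9.72% against 13.1% (fold 0.741, exact test, adjusted p = 0.424). The DRE did not differ detectably, at 3.56% and 3.69% (odds ratio 0.964, 95% interval 0.459 to 2.03). Between divergent promoters GAGAG, the site of the GAGA factor Trl, stood at 6.85% against 12.2% at upstream peaks, a fold of 1.78 (exact test, adjusted p = 0.00382), while Motif 7 was rarer upstream, at 4.52% against 7.64% (fold 0.592, adjusted p = 0.0382).

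Whether bound promoters differ from promoters that lack a peak was asked over single coding promoters. A single promoter was a cluster of starts of 1 coding gene with no divergent coding start within 1000 bp. Of 11746 such promoters, 893 were bound from upstream, 7.6% (95% Wilson interval 7.14 to 8.1). No IDR summit lay within 500 bp of 10633, and the remaining 220 had an IDR peak of another class and were left out. Another 107 clusters, in head-to-head pairs, held the nearest start of an upstream peak. The peak rule admits them and the definition of a single promoter leaves them out. The bound share was even along the genome: 7.83% of promoters on X and 7.76% on the 4 large autosome arms were bound (odds ratio 1.01, two-sided p = 0.926 by Fisher's exact test, 95% interval 0.842 to 1.21), and on chromosome 4 it was 4 of 95. The shares on X and the autosome arms leave out the 220 promoters, and the count on chromosome 4 is over all single promoters.

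Bound promoters carried the motifs of widely active promoters more often than unbound ones. From 250 bp before to 50 bp after the start, a DRE was present at 8.06% of bound and 4.26% of unbound promoters, a fold of 1.89 (adjusted p = 4.87e-06, Fisher's exact test), and at 4.62% of all 11746. Motif 1 was present at 7.73% and 3.33% (fold 2.32, exact test, adjusted p = 1.08e-08; 3.75% of all), and Motif 7, another core promoter motif of flies, at 10.6% and 4.78% (fold 2.23, adjusted p = 1.08e-10; 5.3% of all). These 3 were called, and 20 of the 23 motifs were not. Motif 1 was no longer called with the strongest 2016 IDR peaks alone, where its fold was 1.28 (exact test, adjusted p = 0.644). Of the others, GAGAG (fold 1.27), CAGCTG (1.29), CGCG (1.26), GCGC (1.27), the CGCG box (1.42), the zelda site CAGGTA (0.69) and the Pho site GCCAT (0.867) passed the p threshold and missed the fold.
The CGCG box, the in vitro site of the protein family, was present at 36.2% of bound and 25.5% of unbound promoters (exact test, adjusted p = 1.08e-10; 26.5% of all). The GCGC control went the same way, at 63.9% against 50.3%, and the CCGG control did not, at 34.8% against 35.9% (fold 0.97). With GC content of the window as a covariate the folds of the DRE, Motif 1 and Motif 7 were 1.92, 2.35 and 2.21.

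The differences shrank when unbound promoters with weak candidate regions were the comparison. Of the 10633 unbound promoters, 3605 held a region of the pooled relaxed list, which keeps weak candidates along with background, and 7028 held none. The DRE was present at 8.06% of bound promoters, 7.13% of those with only a relaxed region and 2.79% of those without. Motif 1 stood at 7.73%, 6.52% and 1.69%, and Motif 7 at 10.6%, 7.57% and 3.34%. Against promoters with a relaxed region, none of the 23 motifs was called (0 by Fisher's exact test with adjustment). The folds were 1.13 for the DRE (95% interval of the odds ratio 0.87 to 1.5), 1.19 for Motif 1 (0.909 to 1.59) and 1.15 for the CGCG box (1.06 to 1.45). Motif 7 came nearest, at a fold of 1.4 (exact test, adjusted p = 0.0723). At an unadjusted p under 0.05, 5 motifs differed.

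**Figure D3:**
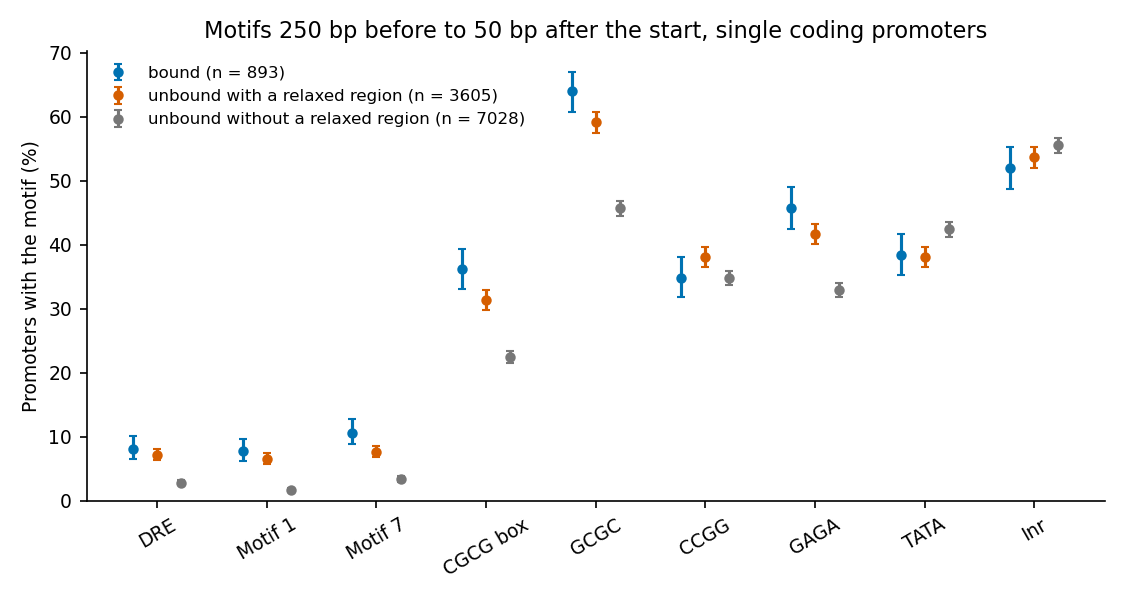
Share of single coding promoters with each motif from 250 bp before to 50 bp after the start, on the y axis in percent, for promoters with an upstream peak (blue), unbound promoters with a relaxed region (orange) and unbound promoters without one (grey). Bars are 95% Wilson intervals; for the DRE, 8.06%, 7.13% and 2.79%, the first 2 groups lie close together and apart from the third.

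Most promoters with these motifs were nevertheless not bound. An upstream peak was found at 13.7% of promoters with a DRE (95% Wilson interval 11 to 16.9), 16.3% of those with Motif 1 (13.1 to 20.1) and 7.17% of those with neither. These shares are over bound and unbound promoters, without the 220 that had an IDR peak of another class. With both motifs it was 10 of 53, or 18.9% (10.6 to 31.4), an interval that includes the shares with a single motif. Among unbound promoters with a DRE, 56.7% held a relaxed region, against 32.9% of those without a DRE, and the shares for Motif 1 were 66.4% and 32.8%. A DRE within the promoter window was not always at the peak: 94 of the 1039 peaks had one in the window around the nearest start, and at 40 of them the centre of the closest one lay within 50 bp of the summit, a rule that also takes sites reaching past the summit window searched above. For the CGCG box it was 70 of 371, and 80.6% of the boxes nearest the summit lay on the gene side of it. The window searched ran from 250 bp before to 50 bp after the start. A summit more than 250 bp upstream could only have boxes on its gene side, so both counts depend in part on the window.

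Base composition changed along bound promoters in a way that the whole window hid. In bound promoters GC content dipped to 34.6% from 200 to 180 bp before the start and climbed to 49.6% from 20 to 40 bp after it. From 250 to 150 bp before the start bound promoters averaged 35 ± 10.2% G and C (SD), against 38.4 ± 10.9% in unbound ones, and in the last 100 bp before the start 46.2 ± 9.52% against 42.6 ± 10.1%. The averages for unbound promoters with a relaxed region were 37.9% and 45%. Over the whole window the opposite differences cancelled, with 41.2% and 41% (difference 0.254, 95% interval −0.256 to 0.764, linear model, n = 893 and 10633, p = 0.329).

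TATA boxes were rarer just before the start of bound promoters. Over the whole window TATAAA was about equally common, at 38.4% of bound and 40.9% of unbound promoters (fold 0.938, exact test, adjusted p = 0.24; 40.7% of all). In unbound promoters it peaked from 40 to 20 bp before the start, its usual place, at 10.1 per 100 promoters in that 20-bp bin. In bound promoters the highest bin lay from 180 to 160 bp before the start, at 6.94 per 100. A site centred 40 to 20 bp before the start, a window chosen after these profiles were seen, was present at 35 of 893 bound promoters (3.92%) and 9.72% of unbound ones, a fold of 0.403 (Fisher's exact test, two-sided, p = 2.96e-10). Against unbound promoters with a relaxed region, at 6.8%, the fold was 0.577 (exact test, p = 0.00111). DREs peaked from 60 to 40 bp before the start in both groups, at 1.79 and 0.865 per 100 promoters, and Motif 1 from 0 to 20 bp after it, at 2.24 and 1.16.

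In the shorter window from 100 bp before to 50 bp after the start 7 motifs were called. They were the DRE (fold 1.89), Motif 1 (2.08), Motif 7 (2.57), CAGCTG (1.63), GAGAG (1.59) and the CGCG box (1.64), all commoner at bound promoters, and the TATA box, rarer at a fold of 0.562 (adjusted p = 7.12e-13, Fisher's exact test). The GCGC control, at a fold of 1.44, and CGCG alone, at 1.45, missed only the fold (exact tests, adjusted p = 2.22e-18 and 6.26e-16). GC content was also 3.32 percentage points higher there in bound promoters. It was not used as a covariate in this window, so its part in these folds was not tested. Against promoters with a relaxed region, the folds in this window were 1.24 for the CGCG box, 1.28 for GAGAG and 0.722 for the TATA box (exact tests, adjusted p = 0.00422, 0.000236 and 0.00331), and none reached the fold a call required. The GCGC control had a fold of 1.14 in that comparison (exact test, adjusted p = 0.00422).

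**Figure D4:**
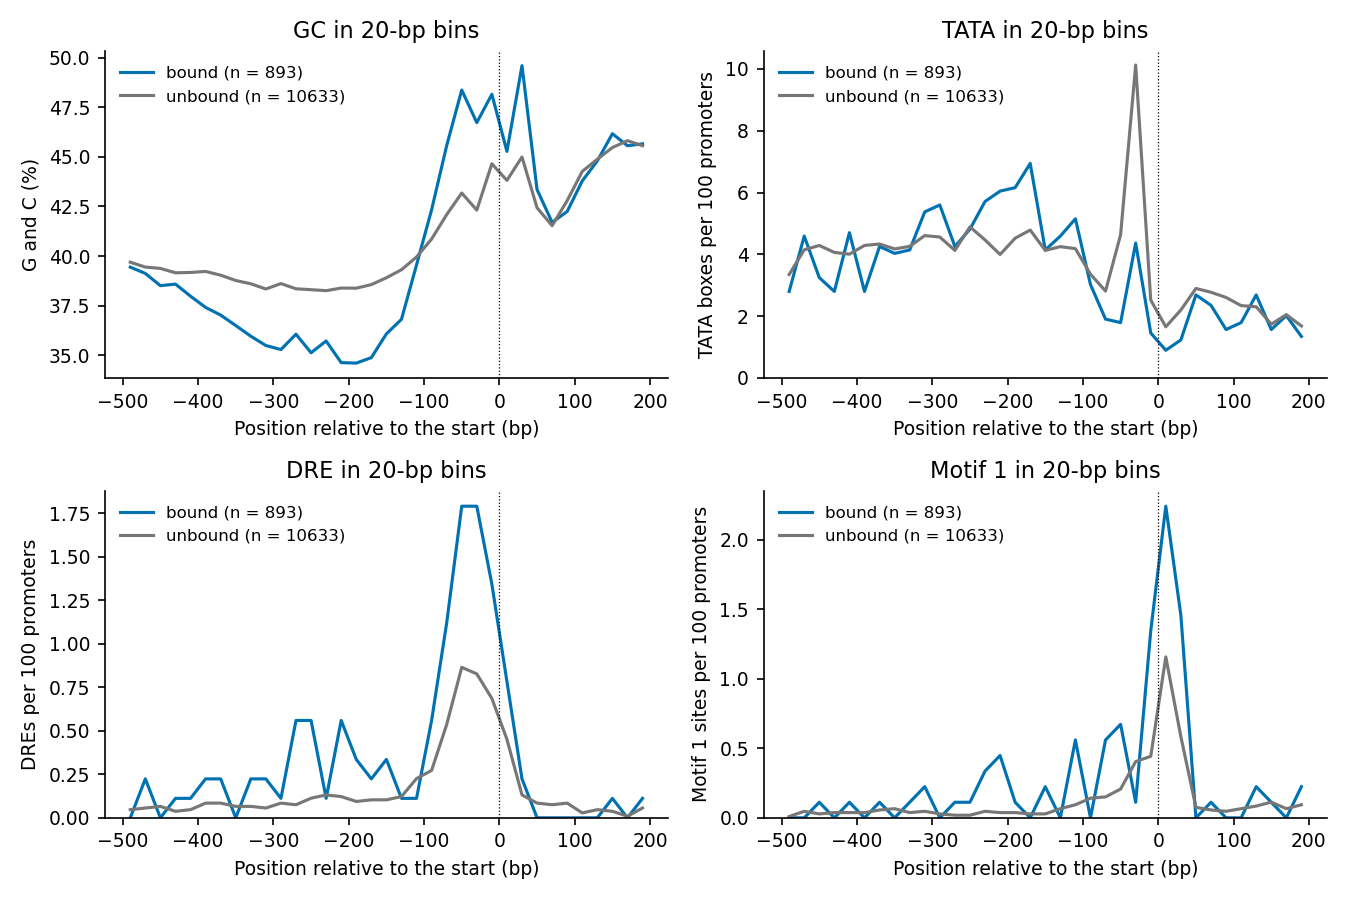
GC content, TATA boxes, DREs and Motif 1 sites in 20-bp bins from 500 bp before to 200 bp after the start, for 893 bound (blue) and 10633 unbound (grey) single coding promoters; motif counts are sites per 100 promoters. GC content is lower in bound promoters around 200 bp before the start and higher in the last 100 bp, and the TATA maximum of 10.1 per 100 just before the start of unbound promoters is small in bound ones.

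Bound promoters belonged to longer genes with more alternative starts. The median gene length was 6199 bp at bound and 3011 bp at unbound promoters, and the odds of being bound rose 1.18-fold per doubling of length (95% interval 1.14 to 1.22, logistic model, n = 893 and 10633, p = 8.28e-25). Unbound promoters with a relaxed region stood between, at 4915 bp, and those without at 2320 bp. The gene had a further cluster of starts at 45.4% of bound and 35% of unbound promoters. A gene with several promoters enters this comparison more than once.

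Of the 18 gene lists, the cytosolic ribosomal protein genes had the largest share of bound promoters, and the receptor and cuticular protein lists had 0 bound genes. Across all 9461 coding genes with a single promoter, 853 (9.02%) were bound from upstream. Of the cytosolic ribosomal protein genes, 17 of 34 were (50%, 95% Wilson interval 34.1 to 65.9). Another 5 had an IDR summit of a different class and 12 had no IDR summit within 500 bp of a single promoter, 9 of them with a relaxed region. Of the 12, RpL7A and RpS5a, named after this was seen, were nearest to an upstream peak at another start. Translation factor genes stood at 7 of 29 (24.1%, 12.2 to 42.1). No set test was made, so these shares describe the lists.

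The ribosomal protein peaks lay close to the start. Counting also genes without a single promoter by this definition, 29 were nearest to an upstream peak. Their summits lay 1 to 88 bp before the start, with a median of 30 bp against 156 bp over all upstream peaks. The summit windows averaged 46.4% G and C, near the 45.5% of all 171 upstream peaks within 50 bp of the start. Both replicates covered 28 of the 29, and 19 ranked among the strongest 2016 IDR peaks. The strongest were RpL23A with a signal value of 572 (ranks 120 in replicate 2 and 118 in replicate 3), RpL24 with 411.5 (209 and 364) and RpL22. The weakest was RpL5 with 99.3 (2622 and 4025), and RpL6 (1737 and 5990) was the gene not covered in both replicates; both genes were named after their values were seen. Of the 17 bound promoter clusters of this list, 4 held a DRE, 5 Motif 1 and 7 a CGCG box, against 2, 0 and 2 of 13 unbound clusters. Over all bound single promoters the shares were 8.06%, 7.73% and 36.2%, and over all unbound ones 4.26%, 3.33% and 25.5%. The small counts of this list were not tested against these shares. Reads of ribosomal protein genes with close copies elsewhere in the genome may have been split between them, which was not tested.

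The translation factor group was led by eIF6, a factor of large ribosomal subunit maturation, with a signal value of 573 (ranks 148 and 119), eEF1gamma with 535 and eIF3c with 293 (922 and 434). The eIF6 summit also lay inside another coding gene and within 500 bp of a non-coding start. The 11 peaks of the translation factor group, at 10 genes, lay 13 to 287 bp upstream. Counts for genes of mitochondria were too small to set them apart from the 9.02% over all coding genes. Of these, 0 of 14 mitochondrial ribosomal protein genes with a single promoter were bound, which allows a share of up to 21.4%, although mRpL41 and mRpL4 (255, ranks 992 and 741), neither with a single promoter by this definition, were nearest to upstream peaks. Of the genes for subunits of oxidative phosphorylation 2 of 45 were bound (4.44%, 1.23 to 14.8), ND-B17 (144, ranks 2902 and 2006) and RFeSP (105.5, 4898 and 3240). The proteasome list had 1 of 24, Rpn12 (101.7, 5758 and 2885), and the aminoacyl-tRNA synthetase list 0 of 11 (up to 27.3%). The chaperonin list had 1 gene with a single promoter and it was not bound.

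In 2 regulatory lists the interval of the share lay above the 9.02% over all coding genes, on small counts. The intervals were not adjusted for the 18 lists, which were chosen with earlier results of these data known. They describe the lists and test nothing. Among Polycomb and trithorax group genes, which maintain states of gene activity, 4 of 14 were bound (28.6%, 11.7 to 54.6). Counting also genes without a bound single promoter, this list had 6 upstream peaks at 5 genes. Both replicates covered 2 of these 6 peaks, against 73.7% of all upstream peaks, so the replicate support for this share was weak. The lowest signal value in the list was 95.4, close to the 95.3 that was lowest over all upstream peaks. Apart from ph-p the signal values named there lay below the median of all upstream peaks, as at kis (144, ranks 2303 and 2347) and esc (102.7, 5230 and 3415). Cell cycle and replication genes had 5 of 19 bound (26.3%, 11.8 to 48.8), and both replicates covered 7 of their 7 upstream peaks. Their strongest peaks were at Dp, the partner of E2F, with 337 (406 and 449), fzr, an activator of the anaphase-promoting complex, with 136 (3484 and 1827), and CycB with 135.7 (2923 and 2254). The insulator and core promoter list had 1 of 8 bound (12.5%, 2.24 to 47.1), an interval that includes the 9.02%. The bound gene was BEAF-32 (145.6, ranks 1616 and 2392), whose product binds the CGATA core of the DRE.

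Muscle genes had 3 of 18 bound (16.7%, 5.84 to 39.2). Msp300, a giant protein that anchors nuclei, stood at 628 (ranks 110 and 88), sls, which encodes titin-like proteins, at 208 (812 and 1445) and the tropomyosin gene Tm1 at 131 (4024 and 1871). In the neuronal list 1 of 16 was bound (6.25%, 1.11 to 28.3). This was elav, an RNA-binding protein gene of neurons, at 563 (195 and 105), and its summit lay inside another coding gene. Camta itself was the 1 bound gene of 18 in the calcium and calmodulin list (5.56%, 0.988 to 25.8). Its signal value was 265 (598 and 842), with the summit 52 bp upstream of the nearest start. The tag was inserted in an intron of this same gene. The intervals of the muscle, neuronal and calcium lists all include the 9.02% over all coding genes.

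Receptor, cuticular, P450 and patterning lists had 0 or 1 bound gene each. Odorant and gustatory receptor genes had 0 of 102 bound, which allows a share of up to 2.94%, cuticular protein genes 0 of 105 (2.86%), ionotropic receptor genes 0 of 51 (5.88%) and homeotic and segmentation genes 0 of 25 (12%, a limit that includes the 9.02% over all genes). Cytochrome P450 genes had 1 of 76, Cyp317a1 at 122 (ranks 4625 and 2154), which the strongest regions of replicate 2 did not cover. Weak candidates were not absent everywhere. An unbound promoter with a relaxed region was found at 14 of the 25 homeotic and segmentation genes. It was found at 6 of the 102 odorant and gustatory receptor genes, 2 of 51 ionotropic receptor genes, 15 of 76 P450 genes and 13 of the 105 cuticular protein genes. Over all coding genes with a single promoter it was 3002 of 9461. The 25 homeotic and segmentation genes had 39 unbound promoter clusters, so some had more than 1 chance to hold a region. Expression was not measured here, so its part in these shares was not tested.

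**Figure D5:**
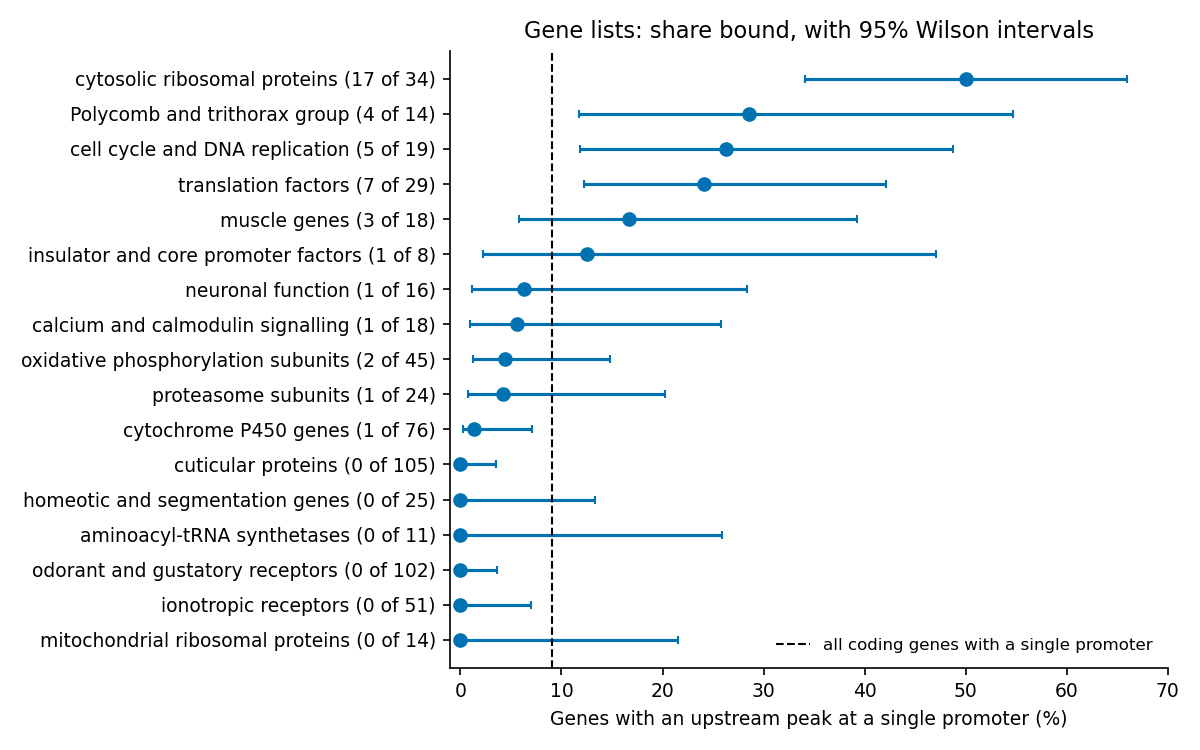
Share of genes with an upstream peak at a single promoter, on the x axis in percent, for the gene lists with at least 8 such genes; counts are beside each name, bars are 95% Wilson intervals and the dashed line is the share over all coding genes with a single promoter, 9.02%. The cytosolic ribosomal protein genes, at 50%, lie highest, and the receptor and cuticular lists lie at 0 or close to it.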

How the data were processed

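ChIP-seq peak lists of 2 biological replicates were used, grouped by the labels as a single group. Per the file records, the authors made a relaxed list for each replicate and for both pooled, each from alignments and 1 further file common to these lists, and derived the optimal IDR list from them. The aligner and peak caller, with versions, were not given in the sources used here. Signal values are the authors' own, as deposited, and were compared only within a list; between replicates ranks were used. The q value was deposited as its −log10 (3.19 to 3.84 at the upstream peaks) and only described. Per the labels, chromatin was sonicated to a size range of 200 to 800, with no unit given. The lists on dm3 were not analysed here.

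Summits were placed against coding transcript starts of Ensembl release 115 (BDGP6.54), with sequence from the RefSeq Release 6 assembly. Starts of a gene within 500 bp of each other formed a cluster; its most upstream start placed the motif window. Bound clusters held the nearest start of an upstream peak. Shares were compared by Fisher's exact test, two-sided, signal values and GC content by linear models with heteroscedasticity-robust errors, and gene length by a logistic model. A count of 0 allows up to 3 counts of the total. Motif 6 and Motif 7 are degenerate and were searched by their published consensus. Motif hits describe letters in a window, not sites of binding, and DREs contain the DRE core CGATA.

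Genes were named by a rule: the 20 strongest upstream peaks, up to 3 per gene list, the 5 strongest with each of 3 motifs, the 3 most discordant in rank each way, and those beside the 500 bp limit, ties included. Sequences were shown for the strongest peaks whose window overlapped no annotated exon, with some arms left out. The peaks, motifs and 18 gene lists were chosen with earlier results of these data known. Symbols with no match were zw5, Z4, olf186-F, h and n-syb. Functions were checked on made-up data with known answers. Alternatives covered the windows, the strongest 2016 IDR peaks, the head-to-head distance, each replicate alone, the background, base composition and the overlap rule. Tests used SciPy 1.17.1 and statsmodels 0.14.6, tables pandas 2.3.3 and NumPy 2.4.6, and figures Matplotlib 3.10.9, under Python 3.11.15.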

Additional observations from a re-analysis of the deposited data

How the results depend on the processing

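Of 123 recomputed values, 91 kept their direction and their side of the threshold or stayed close to the reported value. The rest follow, and the causes were not tested. With a promoter window of 250 bp, 5.56% of single promoters were bound, and with 1000 bp 8.86%. With the strongest 2016 IDR peaks, there were 538 upstream peaks and 3.99% of promoters bound, and Motif 1 had a fold of 1.28 and was no longer called. Against unbound promoters with a relaxed region, the DRE fold was 1.13, that of Motif 1 1.19 and that of the TATA box 1.01, with 0 motifs called. From 100 bp before to 50 bp after the start 7 motifs were called, with folds of 0.562 for the TATA box and 1.64 for the CGCG box; from 500 bp before to the start the TATA fold was 1.01.

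The difference in GC content between bound and unbound promoters, 0.254 percentage points, had no stable sign. It was −1.59 with the 250 bp window, 0.733 with 1000 bp, 1.1 among the strongest 2016 peaks, −0.0538 with a head-to-head distance of 500 bp, 3.32 in the short sequence window, −1.001 in the long one, 0.635 from the most downstream start and −0.76 against promoters with a relaxed region. Leaving out a replicate gave −0.00656 to 0.983. The signal difference from divergent peaks was −0.0428 with the 250 bp window, −0.0054 with a head-to-head distance of 500 bp and 0.0282 among the strongest 2016 peaks. The odds ratio for X was 0.856 with the 250 bp window, 0.926 with a head-to-head distance of 500 bp and 0.961 against promoters with a relaxed region. The odds ratio for coverage in both replicates was 0.848 with the 250 bp window (Fisher's exact test, p = 0.0476), and it has no value without a replicate. The signal difference of DRE peaks was −0.0703 with the motif within 100 bp of the summit; without 1 replicate it ranged from −0.0661 to −0.0208. No paired analysis was possible because there was a single group. Depth is unknown, so what it limits cannot be stated.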
